A study of Mus musculus with 24 samples.

Results

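Aminoacyl-tRNA synthetases are the enzymes that attach each amino acid to its transfer RNA (tRNA), the step that supplies the ribosome with charged tRNA. The 37 genes described here are all the protein-coding genes whose symbol is the 1-letter code of an amino acid followed by "ars", with or without a final 1 or 2, together with Eprs, Farsa and Farsb. They were found among 55487 genes, 55141 of which had a symbol in the mouse annotation of the genome build GRCm38. By this rule 20 are cytosolic and 17, with a final 2, are mitochondrial. Of the 20, Gars and Kars are known to give rise to both a cytosolic and a mitochondrial enzyme from 1 gene, and no Qars2, Gars2 or Kars2 was among the members. All 37 passed the filter on low values, so none was lost before the tests.

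Mammalian cells keep separate sets of these enzymes for the cytosol, where nearly all proteins are made, and for the mitochondrial matrix, where a few subunits of the respiratory chain are made on mitochondrial ribosomes. Both sets are encoded in the nucleus. They fall into class I and class II by the fold of the catalytic domain, and 8 of the cytosolic enzymes (Dars, Eprs, Iars, Kars, Lars, Mars, Qars and Rars) sit with 3 scaffold proteins in the multisynthetase complex. Many cytosolic synthetase genes are known targets of ATF4, the transcription factor that is translated when uncharged tRNA activates the kinase GCN2.

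The samples were gastrocnemius muscles, from the calf, of 24 male C57BL/6J mice, 1 library of poly-adenylated RNA per mouse. The labels give the age as 12 weeks, and the mice entered the study at 10 weeks. One group of 8 (casted with MOTS-c) had both hindlimbs immobilised in casts for 8 days and received MOTS-c, a peptide encoded within the mitochondrial small ribosomal RNA gene, at 15 mg/kg/day by intraperitoneal injection, 2 times a day. The second group of 8 (casted) had the same casts and injections of sterilized water, and the third group of 8 (uncasted) had the water injections without casts. There was no uncasted group with MOTS-c. The comparison of casted with uncasted muscle asks what immobilisation did, and that of casted muscle with and without MOTS-c asks what the peptide did during immobilisation.

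The deposited values are TPM, which correct for transcript length and give each gene's share of a fixed total of transcripts, so sequencing depth is unknown. Libraries held between 19832 and 21755 genes above 0. Libraries were put on 1 scale with a trimmed mean of their log ratios, and levels below are scaled TPM. Changes are differences of log2(scaled TPM + 1) with the standard error (SE) from limma, and a gene is called where the p adjusted by the Benjamini-Hochberg method over all 14690 tested genes is under 0.05. The summed level of 7 muscle fibre markers was 58740 to 105242 in the MOTS-c libraries, 55569 to 85393 in the casted and 121565 to 139296 in the uncasted libraries. Of these 7 markers 0 were higher and 7 lower with casting. Of 8 macrophage markers 5 were higher and 0 lower, with sums of 122 to 299.997, 95.8 to 236 and 76.6 to 103 scaled TPM in the same order of groups. Of 5 endothelial markers 5 were lower, with sums of 66.4 to 88.0, 54.6 to 83.7 and 78.1 to 112, and the 2 tested neutrophil markers were higher. Of 5 fibroblast markers 3 were lower, with sums of 337 to 666, 271 to 718 and 489 to 771, and of 3 Schwann cell markers 2 were lower, with sums of 23.1 to 63.9, 16.5 to 32.5 and 37.7 to 63.5. On the deposited TPM, before scaling, 4 muscle fibre, 2 endothelial, 2 fibroblast and 1 Schwann cell markers were lower, and 1 endothelial, 2 fibroblast and 8 macrophage markers were higher. Of all tested genes, 28.7% were higher and 27.7% lower with casting on scaled values, and 62.2% and 7.43% on the deposited TPM. The 4 T and B cell markers summed to at most 0.625 and the 2 liver markers to at most 0.41 in any library. The part of these other cell types in the results below was not tested, and in whole muscle fewer cells of a type and less RNA per cell cannot be told apart.

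Most cytosolic enzymes rose with casting. Of the 20, 16 were higher in casted than in uncasted muscle, 1 was lower and 3 were not called, whereas 28.7% of all tested genes were higher and 27.7% were lower. The median log2 change of the 20 was 0.52, against 0.01 over all tested genes. The largest change was that of Vars, the valine enzyme (chromosome 17, 35000987 to 35016322, plus strand). Its level was 56.3 at the lowest, 76.0 at the median and 92.7 at the highest in the 8 casted libraries, and 14.2, 16.5 and 19.4 in the 8 uncasted libraries. The groups did not overlap, and the lowest casted library stood well above the highest uncasted one. The ratio of the mean levels was 4.55, and the log2 change was 2.10 ± 0.15 (SE, n = 8 each, limma adjusted p = 6.74e-11).

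Eprs (chromosome 1, 185363044 to 185428360, plus strand) encodes a fused enzyme that charges tRNAs with glutamate and with proline. It had the highest mean level of the 37 members in casted muscle. The casted libraries held 155 at the lowest, 248 at the median and 297 at the highest, and the uncasted libraries 86.5, 97.7 and 105. These ranges were also separate, with a ratio of means of 2.46 and a log2 change of 1.27 ± 0.11 (SE, n = 8 each, limma adjusted p = 1.62e-09). Vars and Eprs were the 2 members, of 37, whose log2 change exceeded 1 in either direction, beside 877 of all 14690 tested genes.

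The other enzymes of the multisynthetase complex changed less and in the same direction. Mars, the methionine enzyme, averaged 63.8 ± 12.9 scaled TPM in casted and 36.6 ± 0.768 in uncasted muscle (SD, n = 8 each), a log2 change of 0.76. The spread of Mars was wide in the casted libraries, from 44.8 to 78.4, and narrow in the uncasted ones, from 35.6 to 37.7. Kars, which charges lysine in both compartments, averaged 115 ± 12.8 in casted and 71.2 ± 2.95 in uncasted muscle, a log2 change of 0.67. Both genes had separate ranges in the casted and uncasted groups. The log2 changes of the remaining complex members were 0.66 for Lars (leucine), 0.62 for Iars (isoleucine), 0.54 for Dars (aspartate), 0.41 for Qars (glutamine) and 0.15 for Rars (arginine). Of the 8, 7 were called higher and 0 lower, with a median of 0.64, and Rars did not pass (limma adjusted p = 0.0634). Rars passed as higher when casted replicate 1 was left out (adjusted p = 0.0171) and when casted replicate 4 was (0.0139). It also passed with casted replicates 5 to 8 alone (0.23, limma adjusted p = 0.00349).

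Among the 12 cytosolic enzymes outside the complex, 9 were higher and 1 was lower, with a median log2 change of 0.40. After Vars, the largest rises were those of Gars, the glycine enzyme of both compartments (0.69), Hars (histidine, 0.63) and Tars (threonine, 0.60). Gars averaged 73.6 ± 7.70 scaled TPM in casted and 45.1 ± 1.80 in uncasted muscle (SD, n = 8 each), and all casted libraries lay above all uncasted ones. The smaller rises were those of Aars (alanine, 0.50), Cars (cysteine, 0.46), Farsb (0.34), Nars (asparagine, 0.31) and Sars (serine, 0.31). Farsa and Farsb encode the alpha and beta subunits of the phenylalanine enzyme, and their levels and changes were unequal. Farsb averaged 62.2 ± 10.3 in casted and 48.4 ± 4.75 in uncasted muscle and was called higher. With casted replicates 1 to 4 alone Farsb was not called (0.20, limma adjusted p = 0.182). Farsa averaged 14.3 ± 1.32 and 14.5 ± 1.57 in the same groups and was not called (log2 change -0.02, limma adjusted p = 0.858). Wars, the tryptophan enzyme, was also not called (0.08, adjusted p = 0.208), but passed as higher with casted replicates 5 to 8 alone (0.14, adjusted p = 0.0494).

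Yars, the tyrosine enzyme (chromosome 4, 129189760 to 129219607, plus strand), was the exception among cytosolic enzymes. Its level was 22.2 at the lowest, 24.3 at the median and 30.4 at the highest in casted libraries, and 27.1, 30.2 and 34.9 in uncasted libraries. The ranges overlapped, and all 8 casted libraries lay below the uncasted mean. The log2 change was -0.27 ± 0.08 (SE, limma adjusted p = 0.00495). This direction depends on the scaling: on the deposited TPM Yars was 0.23 higher in casted muscle (adjusted p = 0.0144). With casted replicates 5 to 8 alone Yars was not called (-0.22, adjusted p = 0.0601).

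Scaling lowers the values of the casting comparison, though not all by the same amount. Eprs went from 1.78 on deposited to 1.27 on scaled TPM, and Mars2, at a low level, from 0.30 to -0.03. On the deposited TPM the median tested gene was 0.39 higher in casted than in uncasted muscle. On that scale all 20 cytosolic enzymes were called higher, with a median log2 change of 1.02. There 10 of the 17 mitochondrial enzymes were higher and 0 lower, with a median of 0.33, beside 62.2% of all tested genes higher and 7.43% lower. On both scales the cytosolic median lay above the median gene and the mitochondrial median below it. Scaling divides every gene of a library by the same factor. This order could therefore hardly differ between the scales, and its agreement is no separate support. Of the cytosolic enzymes, 9 had casted libraries all above the uncasted ones on scaled values, whereas 11.5% of all tested genes did.

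**Figure D1:**
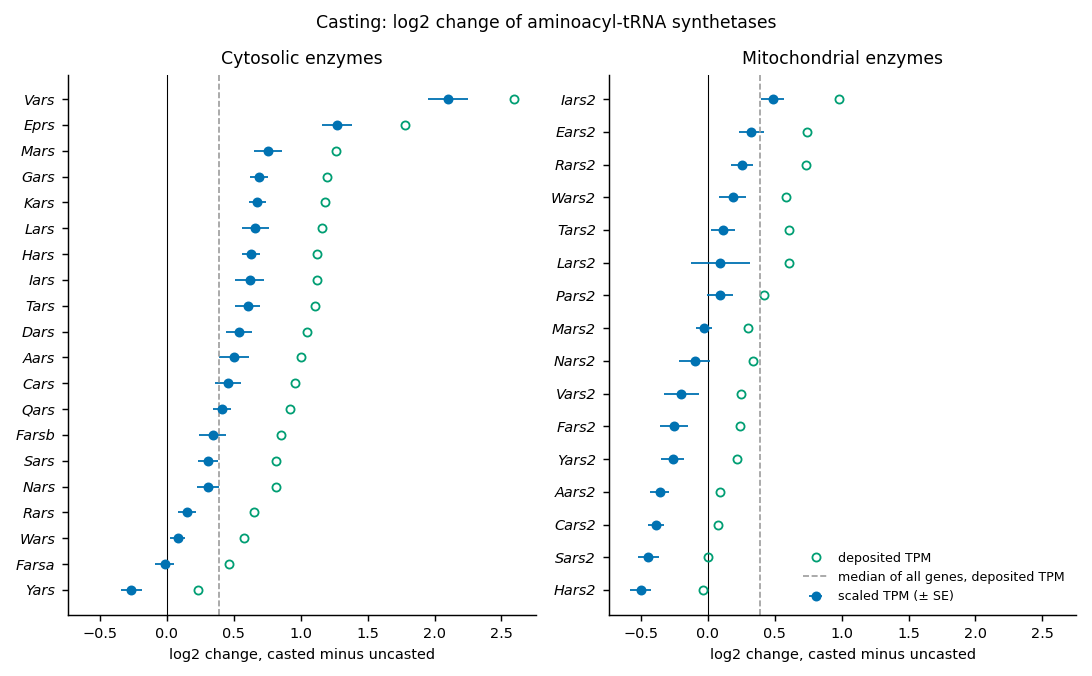
Log2 change of cytosolic (left) and mitochondrial (right) synthetases, casted minus uncasted, on log2(TPM + 1), with filled points for scaled TPM (bars, SE; n = 8 libraries per group) and open points for deposited TPM. Vars (2.10) and Eprs (1.27) lie far to the right of the other cytosolic enzymes, and the dashed line marks the median of all tested genes on the deposited scale (0.39).

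The mitochondrial enzymes moved both ways. Of the 17, 3 were higher in casted than in uncasted muscle and 6 were lower, shares not far from the 28.7% and 27.7% of all tested genes, and their median log2 change was -0.10. The largest fall was that of Hars2, the mitochondrial histidine enzyme, whose level was 6.26 at the lowest, 7.43 at the median and 8.50 at the highest in casted libraries and 9.45, 11.2 and 12.5 in uncasted libraries. The ranges were separate, with a log2 change of -0.50 ± 0.08 (SE, n = 8 each, limma adjusted p = 6.88e-06). The cysteine enzyme Cars2 (-0.39) and the alanine enzyme Aars2 (-0.36) also fell without overlap, as 10.9% of all tested genes did. Cars2 averaged 7.55 ± 0.618 scaled TPM in casted and 10.2 ± 0.454 in uncasted muscle. The other falls were those of Sars2 (serine, -0.44), Yars2 (tyrosine, -0.26) and Fars2 (phenylalanine, -0.25). The call of Fars2 was the least stable, since its adjusted p of 0.0405 became 0.10 without casted replicate 1 and was also above 0.05 without casted replicate 2 or 3 or without uncasted replicate 2, 5, 6, 7 or 8, and it was 0.077 with no filter on low genes. With casted replicates 5 to 8 alone, Fars2 (-0.11, adjusted p = 0.373) and Yars2 (-0.11, adjusted p = 0.331) were not called. On the deposited TPM 0 of these 6 were called in either direction, with log2 changes between -0.04 for Hars2 and 0.24 for Fars2.

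The 3 mitochondrial enzymes that rose were Iars2 (isoleucine, 0.49), Ears2 (glutamate, 0.32) and Rars2 (arginine, 0.26). Iars2 held 29.2 at the lowest, 37.1 at the median and 42.5 at the highest in casted libraries and 21.2, 25.4 and 27.9 in uncasted libraries, without overlap (limma adjusted p = 3.59e-05). The exons of Iars2 share 2034 bases with those of Rab3gap2 on the opposite strand, a gene with a mean of 13.2 deposited TPM, and the labels do not say whether strand was kept. With casted replicates 1 to 4 alone, Iars2 was the 1 mitochondrial enzyme still called higher, where 21.1% of all genes tested in that fit were. The 8 members that were not called included Wars2 (0.19), Tars2 (0.12), Lars2 (0.09), Pars2 (0.09), Mars2 (-0.03), Nars2 (-0.10) and Vars2 (-0.20). With casted replicates 5 to 8 alone Wars2 was called higher (0.30, limma adjusted p = 0.0309). By class, 3 of the 9 class I mitochondrial enzymes were higher and 2 lower, and of the 8 of class II 0 were higher and 4 lower. Of the cytosolic enzymes other than Eprs, which holds a domain of each class, 6 of 9 were higher and 1 lower in class I. In class II 9 of 10 were higher and 0 lower. These counts stand beside 28.7% higher and 27.7% lower of all tested genes. On the deposited TPM 6 of the 9 and 4 of the 8 mitochondrial enzymes were higher, as were all 9 and all 10 cytosolic ones. There 0 were lower, beside 62.2% higher and 7.43% lower of all tested genes.

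**Figure D2:**
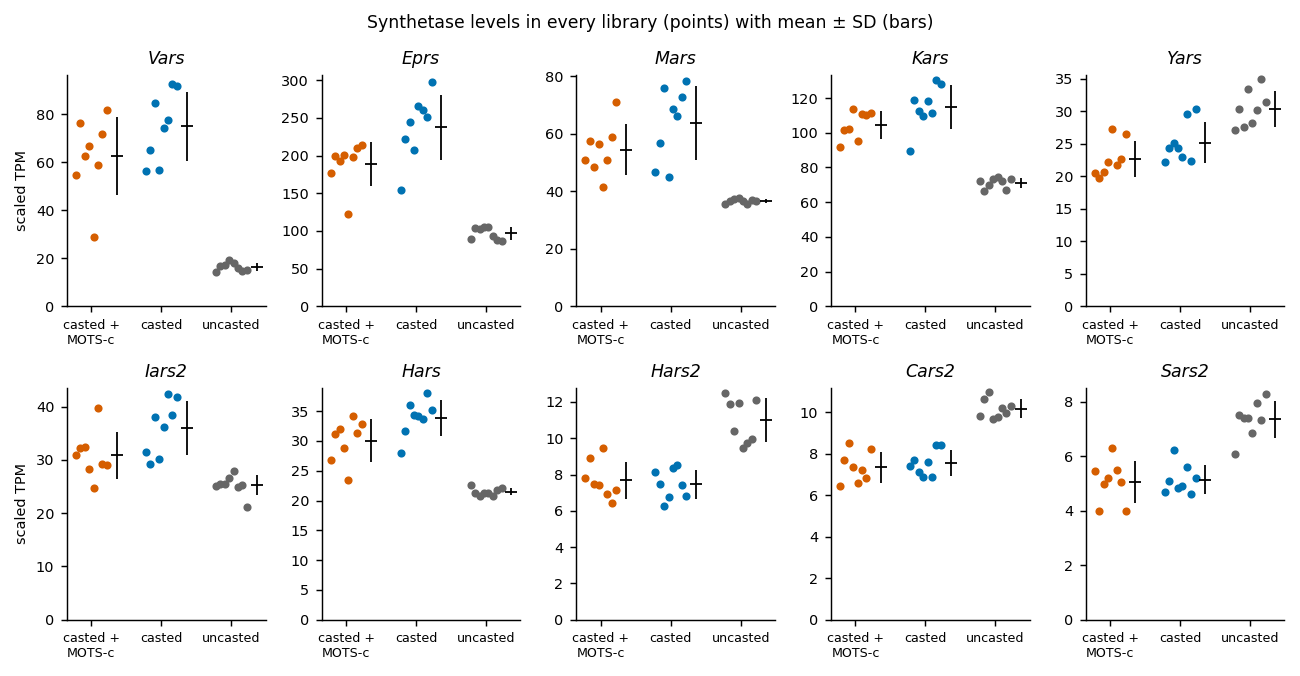
Level of 10 synthetases in each library, in scaled TPM, for casted with MOTS-c (left), casted (middle) and uncasted (right) mice; points are the 8 libraries of a group and bars the mean ± SD. Casted libraries of Vars (56.3 to 92.7) lie above all uncasted ones (14.2 to 19.4), whereas those of Hars2 (6.26 to 8.50) lie below all uncasted ones (9.45 to 12.5), and 1 MOTS-c library holds less Vars and Eprs than the other 7.

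The ratio of 2 genes within 1 library does not depend on the scaling between libraries. For each amino acid with 2 genes, the log2 ratio of cytosolic to mitochondrial TPM was therefore taken in each library, which gave 18 pairs (Eprs was paired with Ears2 and with Pars2, and Fars2 with both Farsa and Farsb). The mean ratio was higher in casted than in uncasted muscle in 16 of 18 pairs, and the median difference was 0.65. The widest shift was that of Vars over Vars2, with a log2 ratio of 2.90 to 3.97 in casted and 0.60 to 1.54 in uncasted libraries. The next was Hars over Hars2, with 1.78 to 2.52 in casted and 0.83 to 1.17 in uncasted libraries, a difference of means of 1.21. Both pairs had separate ranges. Hars and Hars2 are neighbours on chromosome 18 that are transcribed away from each other and overlap by 198 bases, and in the fit Hars rose (0.63) while Hars2 fell. The pairs with the smallest shifts were Yars over Yars2 (0.01), Rars over Rars2 (-0.12) and Iars over Iars2 (0.13), all with overlapping ranges, and the ratio of Wars over Wars2 differed by -0.15. The pairs share genes and libraries, so the ratios are given as a description.

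The cytosolic member was the higher of the pair in every library for 16 of 18 pairs. The exceptions were Farsa over Fars2, with mean log2 ratios of -0.33 in MOTS-c, -0.37 in casted and -0.62 in uncasted libraries, and Lars over Lars2, with -0.69, -1.44 and -2.02. Summed over the 20 cytosolic enzymes, the level was 1218 ± 120 scaled TPM in the MOTS-c, 1378 ± 176 in the casted and 881 ± 27.1 in the uncasted group (SD, n = 8 each). All 17 mitochondrial enzymes summed to 204 ± 11.5, 265 ± 33.6 and 262 ± 39.4 in the same groups. Without Lars2, the most abundant of them, the other 16 summed to 150.04 ± 6.92, 159 ± 15.0 and 161 ± 4.83. All casted sums of the cytosolic set, from 1061 to 1603, lay above all uncasted ones, from 833 to 925. Between casted and uncasted muscle the scaled means of these 16 differed by less than the SD of either group. Without scaling they differed by more, since the same 16 enzymes summed to 183 ± 26.7 deposited TPM in casted and 129 ± 7.56 in uncasted muscle.

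**Figure D3:**
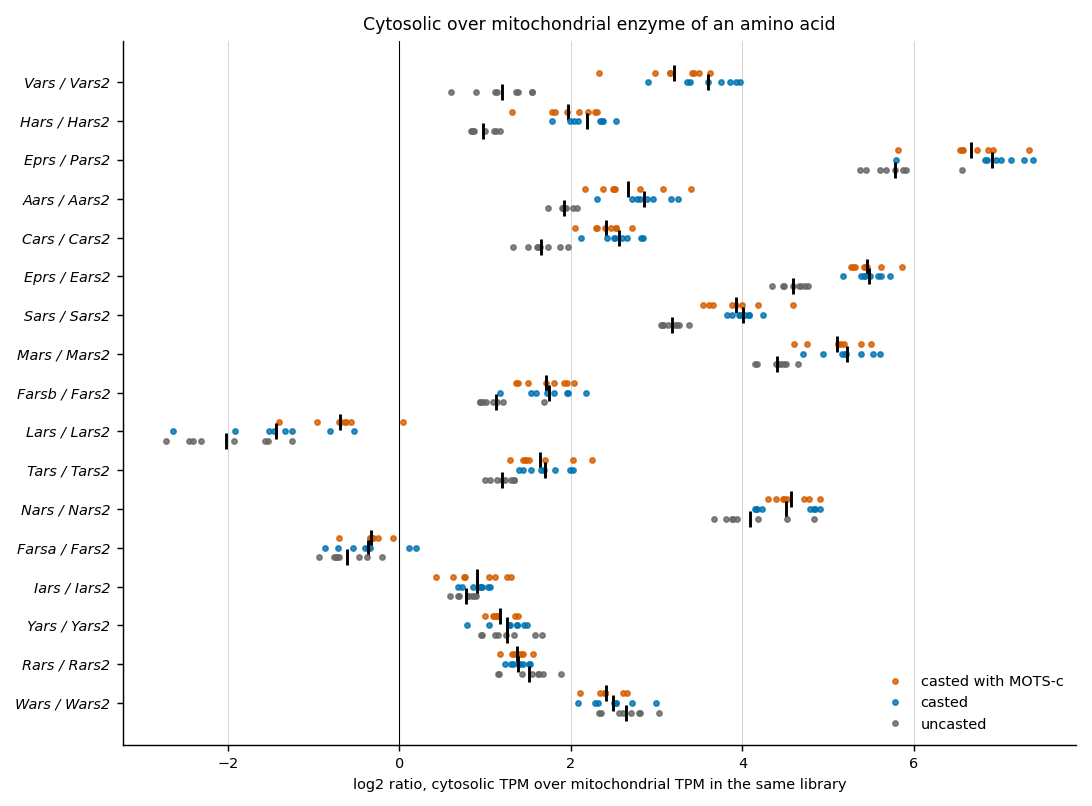
Log2 ratio of cytosolic to mitochondrial TPM within each library for 17 enzyme pairs, with 8 points per group (MOTS-c above, casted in the middle, uncasted below) and a tick at each group mean; pairs are ordered by the shift from uncasted to casted. The shift is widest for Vars / Vars2 and Hars / Hars2 and near 0 for Yars / Yars2, and Lars / Lars2 and Farsa / Fars2 sit mostly below 0.

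Because many cytosolic synthetase genes moved together and ATF4 is a known regulator of such genes, the promoters were searched for the core of its binding element. RefSeq promoters of GRCm38.p6, from 250 bases before to 50 after the start site, were matched for 27 of the 37 members. The motif TGATGNAA was searched on both strands. It was present in 5 of 13 cytosolic promoters (Aars, Gars, Iars, Tars and Yars) and in 0 of 14 mitochondrial ones, beside 3.97% of all 32851 promoters and 2.23% of the 13115 promoters of tested genes. The longer TGATGNAAT was present in 3 of 13 and 0 of 14, beside 0.965% of all promoters. A window of 30 bases around a match in each is printed 5′ to 3′ with the matched bases in capitals and positions counted from the start site, because it is the sequence feature that the 5 genes share, followed by that of Asns, the asparagine synthetase gene, for comparison.
Aars, chr8:111033840-111033869, minus strand, match from position 9: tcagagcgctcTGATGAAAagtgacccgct
Gars, chr6:55037960-55037989, minus strand, match from position -30: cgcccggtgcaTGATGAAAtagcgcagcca
Iars, chr13:49682126-49682155, minus strand, match from position 7: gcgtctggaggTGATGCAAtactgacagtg
Tars, chr15:11399655-11399684, plus strand, match from position -15: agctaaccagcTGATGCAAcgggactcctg
Yars, chr4:129189895-129189924, plus strand, match from position 3: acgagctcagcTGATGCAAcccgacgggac
Asns, chr6:7693214-7693243, minus strand, match from position -23: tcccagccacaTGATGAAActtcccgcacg

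Of the 5 cytosolic genes with the motif, 4 rose with casting (Gars 0.69, Iars 0.62, Tars 0.60 and Aars 0.50) and Yars fell by 0.27 on the log2 scale, beside 16 of all 20 cytosolic enzymes that rose. A match is a run of letters and says nothing of whether ATF4 was bound. Vars and Hars were not among the genes with a matched promoter, and the window of Eprs held no match. The transcript of Atf4 itself was not called with casting, at 104 ± 18.8 scaled TPM in casted and 118 ± 12.2 in uncasted muscle (SD, n = 8 each, log2 change -0.19, limma adjusted p = 0.198), but on the deposited TPM it was called higher (0.32, adjusted p = 0.018). Ddit3, which encodes the stress factor CHOP and overlaps Mars by 68 bases on the opposite strand, fell by 0.54 on the log2 scale, but was not called on the deposited TPM (-0.07, adjusted p = 0.61). Asns rose at a low level, averaging 2.03 ± 0.593 in casted and 1.04 ± 0.431 in uncasted muscle (log2 change 0.57). Of 29 tested genes of the amino acid response list, 12 were higher and 7 lower, where 28.7% and 27.7% of all tested genes were, and on the deposited TPM 22 were higher and 1 lower, where 62.2% and 7.43% were. The leading rises were Ppp1r15a, which encodes the GADD34 subunit of an eIF2 alpha phosphatase (1.55), the lipoprotein receptor gene Vldlr (1.53) and Gcn1l1, whose protein activates GCN2 (1.13). The leading falls were Nupr1 (-0.91) and Psph, of serine synthesis (-0.79), of which Psph was not called on the deposited TPM (-0.34, adjusted p = 0.0522).

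The partners of the synthetases did not all follow them. Of the 3 scaffold proteins of the multisynthetase complex, Eef1e1 rose by 0.30 and Aimp1 was not called, averaging 92.0 ± 6.54 scaled TPM in casted and 89.6 ± 8.09 in uncasted muscle (log2 change 0.04), although it was called higher on the deposited TPM (0.55). Aimp2 fell by 1.02 on the log2 scale (SE 0.25, limma adjusted p = 0.0012) and also fell on the deposited TPM, by 0.51 (adjusted p = 0.0495). Its levels were widely spread in casted muscle, with 46.6 at the lowest, 57.9 at the median and 154 at the highest, and narrow in uncasted muscle, with 141, 153 and 172. The 2 highest casted libraries, replicates 1 and 2 at 131 and 154, lay just below and within the uncasted range. Aimp2 overlaps Eif2ak1 on the opposite strand by 1548 bases, and Eif2ak1 averaged 24.6 scaled TPM over all libraries. Tarsl2, a paralog of the threonine enzyme, fell by 0.28 and Pstk, a kinase of the selenocysteine route, fell by 0.54, and the third gene of that list, Sepsecs, was not called. Tarsl2 was called higher (0.23, adjusted p = 0.0102) and Pstk not called (-0.04, adjusted p = 0.663) on the deposited TPM.

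Genes around tRNA charging were counted in the same way, beside the 28.7% higher and 27.7% lower of all tested genes, or 62.2% and 7.43% on the deposited TPM. Among cytosolic elongation and termination factors 7 of 10 were higher and 0 lower, led by Etf1 (0.66), Eef1a1 (0.95) and Eef2k (0.77), the gene of the kinase that inhibits elongation factor eEF2. Among mitochondrial translation factors 1 of 12 was higher (Mtif3, 0.34) and 8 were lower, led by the deformylase gene Pdf (-1.07), Tufm (-0.44) and Mtif2 (-0.38). Without scaling, 6 of the 12 were higher and 1 lower, and Tufm (0.07) and Mtif2 (0.11) were not called. All 3 genes of the mitochondrial amidotransferase that converts glutamyl-tRNA to glutaminyl-tRNA, and so stands in for the missing mitochondrial glutamine enzyme, were lower: Qrsl1 (-0.76), Gatb (-0.26) and Gatc (-0.22). Qrsl1 was still lower (-0.29), Gatb not called (0.22) and Gatc higher (0.28) on the deposited TPM. Of 22 tested genes of tRNA end processing and export, 12 were higher, led by Elac2 (0.88), Pop1 (0.74) and Trnt1 (0.66), and 2 were lower, Rpp21 (-0.70) and Tsen34 (-0.46). Of 25 genes of RNA polymerase III and its factors, which make tRNA, 11 were higher, led by Polr1d (0.61), Polr3e (0.52) and Polr1c (0.51), and 1 was lower, Polr3k (-0.46). On the deposited TPM 20 of the 22 and 24 of the 25 were higher and 0 lower, and Rpp21 (-0.22), Tsen34 (0.03) and Polr3k (0.01) were not called.

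The next counts stand beside the same 28.7% higher and 27.7% lower of all tested genes, or 62.2% and 7.43% on the deposited TPM. Of 15 tRNA modification enzymes that act in mitochondria or in both compartments, 5 were higher, led by Nsun2 (1.44), Trmt1 (1.09) and Pus1 (0.75), and 2 lower, Osgepl1 (-0.29) and Gtpbp3 (-0.22). Without scaling, 13 of the 15 were higher and 0 lower, with Osgepl1 called higher (0.21) and Gtpbp3 not called (0.20). Of 6 genes that remove amino acids or peptides from tRNA, 4 were higher, among them Dtd2 (0.62), Dtd1 (0.60) and Ptrh2 (0.17), and 0 were lower. On the deposited TPM all 6 were higher. Wars is known to be induced by interferon, and of 20 interferon-inducible genes 1 was higher (Cxcl10, 2.59) and 7 were lower, led by Gbp7 (-1.10), Ifit3 (-0.63) and Usp18 (-0.38). Without scaling, 7 of the 20 were higher and 1 was lower, Gbp7 (-0.68), and Ifit3 (-0.26) and Usp18 (-0.13) were not called. A link of these genes to the level of Wars was not tested.

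With MOTS-c, 0 of the 37 members were called against casting alone, where 0.0204% of all tested genes (3 of 14690) were. An unadjusted p under 0.05 was reached by 1986 tested genes. The log2 changes of all 20 cytosolic enzymes were below 0, from -0.32 for Eprs to -0.02 for Farsa, with a median of -0.15, while 51.4% of all tested genes were below 0 and the median gene lay at -0.005. Of the 17 mitochondrial enzymes 14 were below 0, with a median of -0.05. Eprs held 122 at the lowest, 199 at the median and 214 at the highest in the MOTS-c libraries and 155, 248 and 297 in the casted libraries. All 8 MOTS-c libraries lay below the casted mean, yet the ranges overlapped, and the log2 change of -0.32 ± 0.11 did not pass (SE, n = 8 each, limma adjusted p = 0.241). Ears2 gave -0.25 ± 0.09 (adjusted p = 0.273) and Vars -0.28 ± 0.15 (adjusted p = 0.41). MOTS-c replicate 5 lay apart, with 29.1 scaled TPM of Vars and 122 of Eprs, and without it the change of Vars was -0.14 and that of Eprs -0.24.

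The MOTS-c comparison depended on which casted libraries stood for casting alone. Against casted replicates 5 to 8 only, 8 cytosolic enzymes (Dars, Eprs, Gars, Iars, Kars, Lars, Mars and Wars) and the mitochondrial Ears2 and Iars2 were called lower with MOTS-c, where 4.92% of all genes tested in that fit were. Eprs then changed by -0.51 ± 0.11 (SE, limma adjusted p = 0.00884). Against casted replicates 1 to 4 only, 0 members were called, where 0.0139% of tested genes were, and the median of the cytosolic enzymes was -0.04. The labels name no batch that separates replicates 1 to 4 from 5 to 8. Relative to uncasted muscle, the casted replicates 1 to 4 gave a cytosolic median of 0.37 and replicates 5 to 8 one of 0.65. Replicates 5 to 8 were thus the set with the higher cytosolic enzymes. Why these sets differ was not tested. The split by replicate number was made in the casted group alone and kept all 8 MOTS-c libraries. Its calls are therefore not read as an effect of MOTS-c. With all 8 casted libraries 0 of the 37 members were called.

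**Figure D4:**
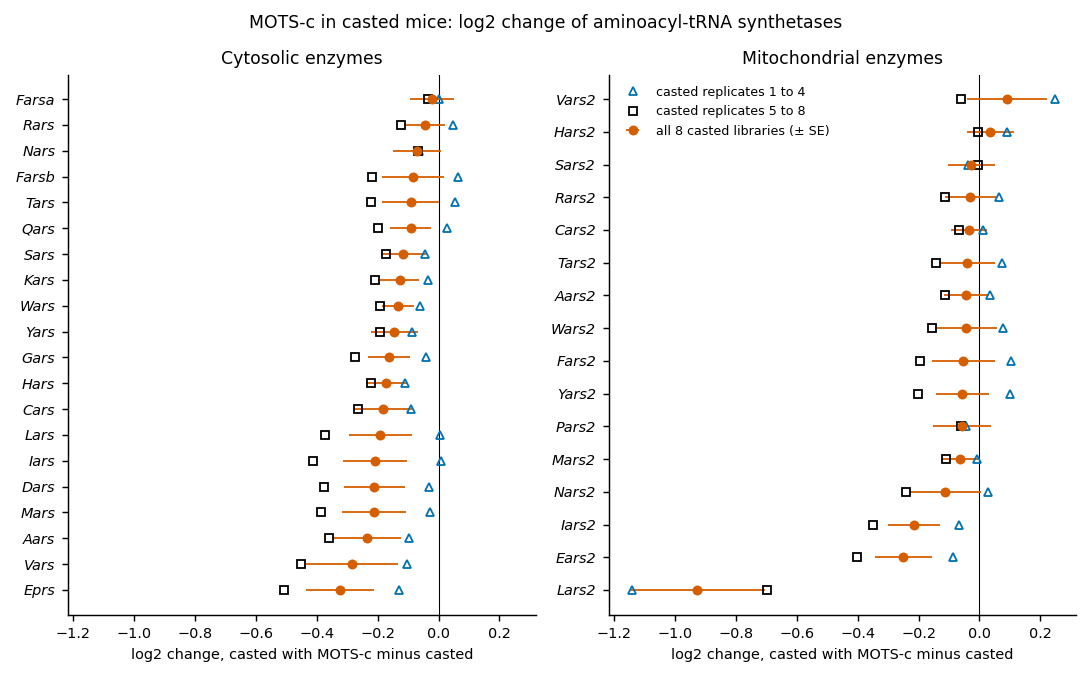
Log2 change of cytosolic (left) and mitochondrial (right) synthetases, casted with MOTS-c minus casted, on log2(scaled TPM + 1). Filled points use all 8 casted libraries (bars, SE), open triangles casted replicates 1 to 4 and open squares replicates 5 to 8; squares lie to the left of triangles for most enzymes, as for Eprs, whereas Lars2 lies far to the left in all 3.

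Against uncasted muscle, the MOTS-c group had 18 members higher and 8 lower, beside 26.0% of all tested genes higher and 24.7% lower. This comparison shares its uncasted libraries with the casting comparison and its MOTS-c libraries with the other, so the values stand beside them and add no independent evidence. Of the cytosolic enzymes 16 were higher and 1 lower (Yars, -0.41), and of the mitochondrial ones 2 were higher (Iars2, 0.27, and Rars2, 0.23) and 7 lower. Vars changed by 1.82 ± 0.15 and Eprs by 0.94 ± 0.11 (SE, n = 8 each, limma adjusted p = 1.27e-09 and 2.49e-07). The further rises were Kars (0.55), Mars (0.54), Gars (0.52), Tars (0.51), Lars (0.47), Hars (0.46), Iars (0.41), Dars (0.33) and Qars (0.32), and more weakly Cars (0.27), Aars (0.27), Farsb (0.26), Nars (0.23) and Sars (0.19). Without uncasted replicate 1, 12 rather than 16 cytosolic enzymes passed as higher. With no filter on low genes 13 did, and Aars (adjusted p = 0.0926), Farsb (0.0713) and Sars (0.0544) were not called; Aars was also not called with median-of-ratios scaling (0.0525). The mitochondrial falls were Lars2 (-0.83), Sars2 (-0.47), Hars2 (-0.47), Cars2 (-0.42), Aars2 (-0.40), Yars2 (-0.32) and Fars2 (-0.31). On the deposited TPM 0 of these 7 were called lower, where 6.94% of all tested genes were.

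Lars2, the mitochondrial leucine enzyme (chromosome 9, 123366927 to 123462666, plus strand), had the widest spread, relative to its mean, of the members in casted and in uncasted muscle. Its level was 33.6 at the lowest, 52.7 at the median and 70.4 at the highest in the MOTS-c libraries, 65.8, 99.99 and 187 in the casted libraries and 58.6, 105 and 157 in the uncasted libraries. It was the most abundant mitochondrial synthetase in all 3 groups. The change with MOTS-c against casting was -0.93 ± 0.22 (SE, n = 8 each, limma adjusted p = 0.0918), the smallest p of the 37 members, and all 8 MOTS-c libraries lay below the casted mean. Against uncasted muscle it was called lower (adjusted p = 0.00296), but not on the deposited TPM (-0.40, adjusted p = 0.107).

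The uncasted libraries fell into 2 sets for Lars2. Replicates 1 to 4 held 128 to 157 scaled TPM and replicates 5 to 8 held 58.6 to 81.1. The same division appeared in CT010467.1, an annotated ribosomal RNA gene, with 8466 to 9658 and 1865 to 3650. Of all tested genes, CT010467.1 had the pattern most like that of Lars2, with a Pearson r of 0.93 and a Spearman rho of 0.92 over the 24 libraries after group means were removed, and the annotated microRNA gene Mir6236 was next (0.91 and 0.90). Within the groups, r and rho of Lars2 with CT010467.1 were 0.78 and 0.40 over the 8 MOTS-c, 0.91 and 0.95 over the 8 casted and 0.98 and 0.98 over the 8 uncasted libraries. These correlations describe libraries that share their totals and scaling. For the other 36 members, r with CT010467.1 lay between -0.61 (Nars2) and 0.21 (Aars).

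CT010467.1 averaged 3220 ± 648 scaled TPM in the MOTS-c, 6544 ± 3019 in the casted and 5873 ± 3302 in the uncasted libraries (SD, n = 8 each), and its change with MOTS-c against casting was -0.91 (limma adjusted p = 0.258). The level of Lars2 was 1.28% to 2.11% of that of CT010467.1 in the MOTS-c, 1.17% to 2.26% in the casted and 1.47% to 3.14% in the uncasted libraries, ranges that overlap throughout. The longest run of identical bases between the annotated transcripts of Lars2 and of CT010467.1 was 13. Whether the part of ribosomal RNA in these libraries contributes to the Lars2 values was not tested. CT010467.1 and Mir6236 were chosen after their values were seen.

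**Figure D5:**
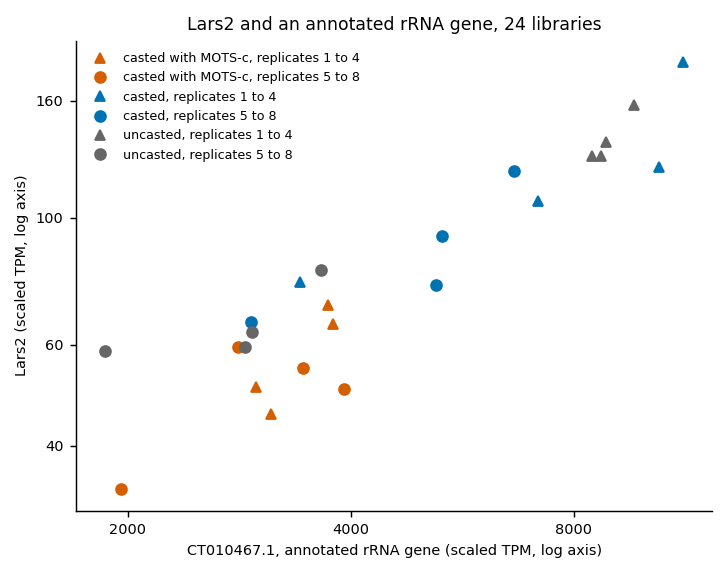
Level of Lars2 against that of CT010467.1, an annotated ribosomal RNA gene, in scaled TPM on log axes, for the 24 libraries; colours mark the groups, triangles replicates 1 to 4 and circles replicates 5 to 8. Uncasted triangles sit at the upper right (Lars2 128 to 157) and uncasted circles at the lower left (58.6 to 81.1), and the MOTS-c libraries sit at the lower left (33.6 to 70.4).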

How the data were processed

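Poly-adenylated RNA of 24 gastrocnemius muscles was sequenced, and the authors deposited 1 table of TPM per library; the tools named in the submitters' processing notes are STAR, RSEM, FastQC and DESeq2, with the build GRCm38.p6 and without versions or an annotation release. TPM have a fixed total, so depth is unknown and no counting error can be given. Symbols and positions (1-based) come from a GENCODE annotation of GRCm38.

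TPM were scaled by an unweighted trimmed mean of log ratios (30% of ratios and 5% of levels trimmed at each end). The test was limma 3.58.1 in R 4.3.3, two-sided, with a mean-variance trend, on log2(scaled TPM + 1), which understates the change of low genes. A single fit held the 3 group means over the 24 libraries, with no covariate. The 14690 genes tested reached 0.5 TPM in 8 or more libraries. The model was tested on simulated data. Near-copies were sought with blastn 2.17.0 at 90% identity over 300 bases. A processed pseudogene, Gm4849, matches Iars at 96.0% over 1656 bases, with a mean of 0.305 TPM.

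The members, gene lists and naming rule were chosen with earlier results of these data known. The values of 1 member and 1 promoter window are not reported here; the member stays in all counts and medians. The rule named every other member for casting, each called member and the 3 of smallest p for MOTS-c, and up to 3 called genes per direction of each list, with 7 scaffold, paralog and ATF4 pathway genes in addition. Values are mean ± SD over the libraries of a group. The labels name separate mice and no batch. Alternatives were no scaling, median-of-ratios scaling, a pseudocount of 0.1, no filter, only the 2 groups compared, the replicate number as a block, each library left out, the casted libraries in 2 sets of 4, and a longer motif.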

Additional observations from a re-analysis of the deposited data

Results flagged for a closer look

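For each member and group, the lowest and highest of the 8 libraries were compared with their nearest neighbour by Dixon's ratio of gap to range, read against its 95% critical value for 8 libraries. Of 111 groups tested 6 passed, where chance flags about 1 in 20 groups. Eprs was lowest in MOTS-c replicate 5, at 122 scaled TPM against 177 in the next library. Lars2 was highest in casted replicate 4, at 187 against 123. Nars was highest in MOTS-c replicate 6, at 148 against 108, and Sars in MOTS-c replicate 8, at 96.7 against 80.3. Farsb was highest in uncasted replicate 4, at 59.2 against 49.5, and Iars2 was lowest in uncasted replicate 8, at 21.2 against 24.99. Aimp2, no member, stood at 199 scaled TPM in MOTS-c replicate 5, where the median of that group was 76.4.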

How the results depend on the processing

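Casting counts were steady under median-of-ratios scaling, a pseudocount of 0.1, no filter and a fit of the 2 groups alone. Leaving out 1 library gave 16 to 17 cytosolic enzymes higher and 1 lower, and 3 to 4 mitochondrial enzymes higher and 5 to 6 lower. On the deposited TPM, 0 cytosolic and 0 mitochondrial enzymes were lower and 10 mitochondrial ones were higher. Of all tested genes, 62.2% were higher and 7.43% lower there. With casted replicates 5 to 8 alone, 0 cytosolic enzymes were lower, and with replicates 1 to 4 alone 1 mitochondrial enzyme was higher. Directions that turned on the deposited TPM were those of Aars2 (0.0884), Cars2 (0.0764), Fars2 (0.24), Farsa (0.47), Mars2 (0.30), Nars2 (0.33), Sars2 (0.0007), Vars2 (0.25), Yars (0.23) and Yars2 (0.21), where the median gene stood at 0.39. With casted replicates 5 to 8 alone, Lars2 (-0.13), Mars2 (0.0207) and Nars2 (0.0342) turned. With 1 library left out, Farsa lay between -0.0522 and 0.013 and Lars2 between -0.0392 and 0.20. With MOTS-c against casting, the number of all tested genes called, 3 in the report, was 8 on the deposited TPM, 0 with a pseudocount of 0.1, with no filter or with the 2 groups alone, 1417 with casted replicates 5 to 8 alone, and 0 to 63 with 1 library left out (63 without casted replicate 1, 26 without MOTS-c replicate 8). Against casted replicates 5 to 8 alone, 8 cytosolic and 2 mitochondrial enzymes were lower; the cause was not tested. With MOTS-c against uncasted muscle, the deposited TPM gave 0 cytosolic and 0 mitochondrial enzymes lower and 8 mitochondrial ones higher. Of all 14690 tested genes, 8808 were higher and 1019 lower in that fit. Fars2 (0.11), Yars (0.0094) and Yars2 (0.0847) turned there. On scaled values, leaving out 1 library gave 12 to 16 cytosolic and 1 to 2 mitochondrial enzymes higher. The longer motif was found in 3 cytosolic promoters. TPM carry no depth, so the precision of low members such as Mars2 and Pars2 is known from the replicates alone.

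Replicate numbers are shared between groups but name different mice, and libraries with the same number did not all deviate together, with correlations between -0.24 and 0.37. With the replicate number as a block, 18 genes were called with MOTS-c against casting, among them 1 mitochondrial enzyme, Lars2 (-0.93, limma adjusted p = 0.0257), and Aars was no longer called with MOTS-c against uncasted muscle (adjusted p = 0.0701). No other call of a named member changed. Not every library correlated best with its own number.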

Other observations

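Other genes around tRNA charging were set beside the synthetases in the MOTS-c comparison. Against casting alone, 0 of the 22 tested genes of tRNA end processing and export, 0 of the 25 of RNA polymerase III and its factors, 0 of the 15 tRNA modification enzymes and 0 of the 29 of the amino acid response were called, beside 3 of all 14690 tested genes. The median log2 changes of these lists were -0.12, -0.11, -0.12 and -0.05. That of the 12 mitochondrial translation factors was -0.002, and that of the 10 cytosolic elongation and termination factors was -0.08. Nsun2, a tRNA methyltransferase gene, averaged 70.1 ± 12.5 scaled TPM in the MOTS-c and 89.0 ± 19.6 in the casted libraries (SD, n = 8 each, log2 change -0.33, limma adjusted p = 0.264). Of 8 macrophage and 5 fibroblast markers 0 were called, with median log2 changes of 0.42 and 0.47 with MOTS-c against casting alone.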
